A study of Mus musculus with 10 samples.

Results

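The proteasome genes described here are the mouse genes whose symbols start with Psma, Psmb, Psmc, Psmd, Psme, Psmf or Psmg followed by a digit. They numbered 47 of the 17097 genes that a probe set with 1 gene symbol stood for, and 43 of the 47 were among the 10734 genes with a mean log2 signal above 4.58, the median of all probe sets, which were tested. The other 4 (Psma8, Psmb11, Psmc3ip and Psmg4) lay below that level. Membership was set by name alone and by no measured value, though earlier results of these data were known. Where a gene had several probe sets the one with the highest mean over the 10 arrays was used. The name rule also took in Psme3ip1, a protein that interacts with Psme3, and Psmc3ip, a meiotic recombination factor, and neither is a proteasome subunit. Psmc6, Psmd10, Psme4 and Psme2b were not analysed here.

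The cells were neutrophils taken from the blood of 10 untreated male C57BL/6 mice (C57BL/6J in the growth protocol), 3 months old, which had 9 days to acclimatize. All arrays used 1 genotype and no agent. The individual group holds 5 mice with 1 array each, called mouse 1 to mouse 5, and the pooled group holds 5 portions of the mixed blood of the other 5 mice, called pool 1 to pool 5. The pool was split before cells were isolated with magnetic beads against Ly6G, so its arrays are technical replicates of 1 sample, in which differences between animals play no part. The labels give a purity of 71.5% to 99.5% with no value per sample. Signals were measured on Affymetrix arrays after 2-cycle labelling, and the question addressed is how far single mice differ beyond the noise of the procedure.

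The proteasome is the main machine for controlled protein breakdown in the cell, and in short-lived blood neutrophils it also degrades the survival protein Mcl1. Its barrel, the 20S core, stacks rings of alpha subunits, which gate the entrance, on rings of beta subunits, some of which cut proteins inside the chamber, and the 19S cap recognizes ubiquitin-tagged proteins, unfolds them with ATPases and feeds them in. Interferon gamma makes cells build the immunoproteasome, in which Psmb8, Psmb9 and Psmb10 replace the constitutive cutting subunits Psmb5, Psmb6 and Psmb7, and the PA28 activator, and both favour peptides for display on MHC class I.

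Some facts of the arrays bear on every value below. Mouse 5 stood apart: its signals correlated with those of the other arrays at r = 0.74 to 0.80, against 0.90 to 0.94 for mouse 4 with arrays other than mouse 5 and 0.95 to 0.99 among the other 8 arrays. The 95th percentile of signal was 7.46 in mouse 5 and 8.72 to 9.25 elsewhere. The median signal of mouse 5 was 4.74, and readings of proteasome genes below it in that mouse are weak signals. Fold spans and differences that rest on them are uncertain in size. The 3′ minus 5′ signal of Actb, a measure of how far labelling reached from the transcript end, was 4.57 in mouse 5 and 4.41 in mouse 3 against 1.28 to 2.72 in the other 8 arrays. The neutrophil markers S100a8 and S100a9 read between 12.28 and 13.29 on the 10 arrays, while the 14 neutrophil markers averaged −2.79 in mouse 5 relative to the pool mean, and −0.83 to 0.74 in mice 1 to 4. The 9 tested B cell markers averaged −2.78 in mouse 4, −2.02 in mouse 5, 0.70 to 1.43 in mice 1 to 3 and −0.32 to 0.67 on the pool arrays, and Pax5 and Ighm were under the signal filter. The 13 monocyte and dendritic cell markers averaged −1.15 in mouse 4 and −0.87 in mouse 5, but they did not move together. In mouse 4, H2-Aa, H2-Ab1, H2-Eb1, Cd74, Cx3cr1, F13a1 and Ms4a6c lay below every pool array. Ccr2, Adgre1, Fcgr1, Flt3 and Itgax lay above every pool array there. After the quantile normalization described below, the average was −0.94 in mouse 4 and 0.10 in mouse 5. The 9 platelet markers averaged −2.86 to −1.31 in the 5 mice. The 5 erythroid markers averaged −1.48 in mouse 4 and −1.35 in mouse 5, 0.19 to 0.88 in mice 1 to 3 and −0.60 to 1.10 on the pool arrays. The part of cell mixture and RNA quality in the proteasome values was not tested. In these bulk samples fewer cells of a type and less RNA per cell cannot be told apart.

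Most proteasome genes were lower in mouse 5 than on any other array. Mouse 5 was the lowest of the 10 arrays for 38 of 43 genes, against 43.8% of all genes tested, and the lowest of the 5 mice for 39, against 46.1%. It lay more than 2-fold below the lowest of mice 1 to 4 for 25 genes, against 25.4%. The 5 mice spanned more than 2-fold for 40 genes, against 67.6% of all genes, mice 1 to 3 for 2 (Psmd3 and Psmd14), against 8.48%, and the pool arrays for 6, against 12.1%. Averaged over the 43 genes, the signal relative to the pool mean was 0.27, 0.18, 0.22, −0.41 and −2.06 in mice 1 to 5, and −0.31 to 0.20 on the pool arrays. The same mean over all genes tested was 0.04, −0.00, 0.04, −0.28 and −0.76. The proteasome mean was lowest in mouse 5 and next lowest in mouse 4, and mice 1 to 3 lay within or just above the range of the pool arrays. After another quantile normalization, which gives the 10 arrays 1 common distribution and raised the median of all genes by 0.38 in mouse 5, the proteasome mean was −1.62 in mouse 5 and −0.18 in mouse 4, against −0.24 and −0.10 for all genes. Mouse 5 was then the lowest of the 5 mice for 32 genes, against 38.9% of all genes, and its difference from the mean of mice 1 to 4 turned from negative to positive for Psma2, Psmc4, Psmd3, Psmd14 and Psmf1.

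**Figure D1:**
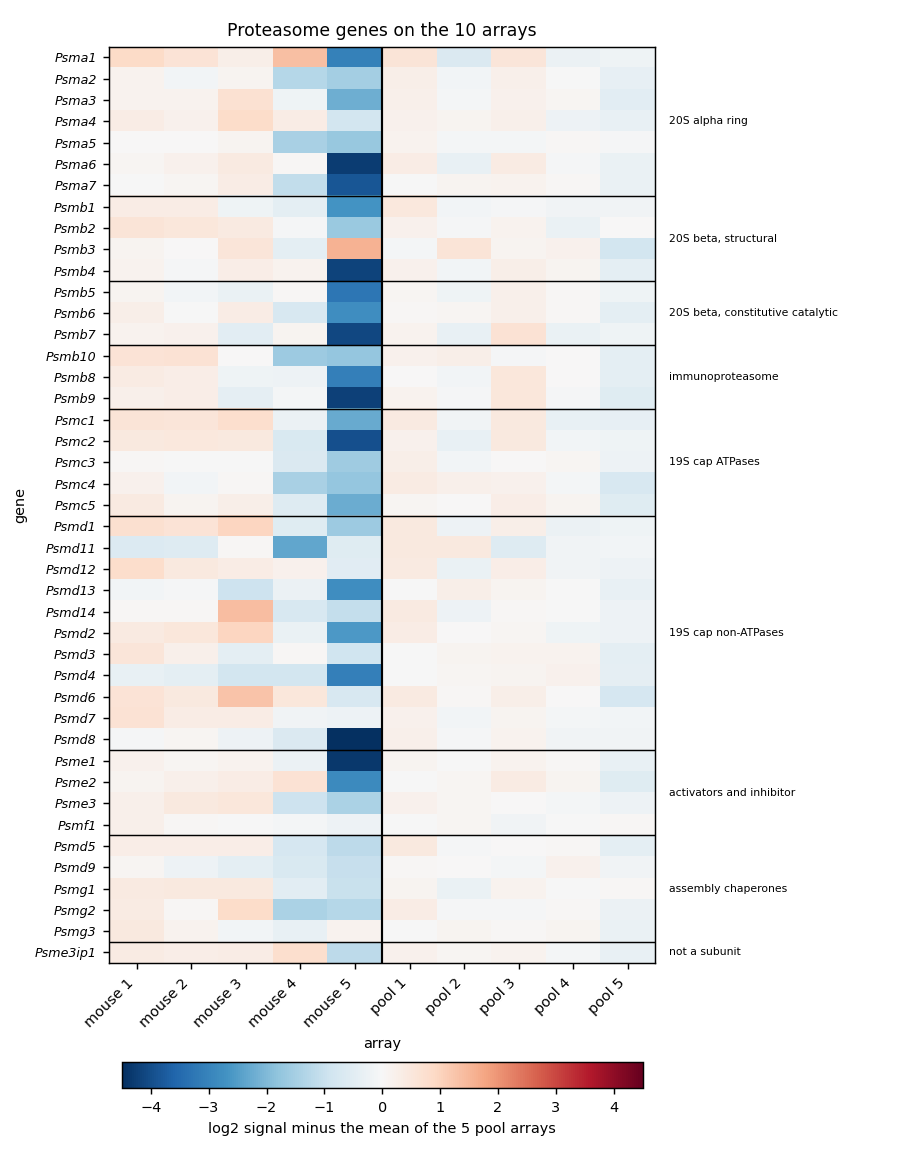
Heat map of the 43 proteasome genes tested (rows, by class) on the 5 individual mice and 5 pool arrays (columns), coloured by log2 signal minus the mean of the 5 pool arrays. Mouse 5 is the bluest column, with Psmb3 as its strongest red, and in the mouse 4 column Psmd11 is the darkest row.

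The variance of each gene between mice was divided by its variance between pool arrays, the latter moderated across genes in limma. The log2 of this ratio is 0 where the variance between mice equals the moderated variance of the pool, not the observed one. By this test 38 of 43 proteasome genes (88.4%) were more variable between mice, against 66.8% of all genes tested, and 0 were less variable (limma, adjusted p under 0.05; at an unadjusted p under 0.05 also 0 of 43, against 0.540% of all genes). The median log2 variance ratio was 3.98 for the proteasome genes and 2.72 for all genes, and the median SD between mice was 1.09 against 0.57. The 5 genes that did not pass were Psmb3, Psmd6, Psmd12, Psmf1 and Psmg3. The share called was higher among genes of high signal. With a filter at 5.94, the 75th percentile of all probe sets, the test called 36 of 39 proteasome genes (92.3%), against 72.9% of all genes above it. The class medians of the SD between mice ran from 0.67 for the assembly chaperones to 1.44 for the constitutive catalytic and immunoproteasome subunits, and those between pool arrays from 0.19 to 0.34. Without mouse 5 the test called 7 of 43 (16.3%), against 20.3% of all genes, and 13 at an unadjusted p under 0.05, against 33.8%, and the median SD was 0.38 against 0.33. Without mice 4 and 5 it called 0 of 43, against 0.708%, with 1 more variable at an unadjusted p under 0.05, against 8.93%, and 6 less variable, against 7.41%. A Levene type test on all 10 arrays called 0% of all genes and so 0 of the 43, with 1 at an unadjusted p under 0.05, against 7.79%. In mice 1 to 3 the median SD was 0.19 for the proteasome genes, against 0.27 between pool arrays. For all genes it was 0.19, against 0.23 between pool arrays.

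**Figure D2:**
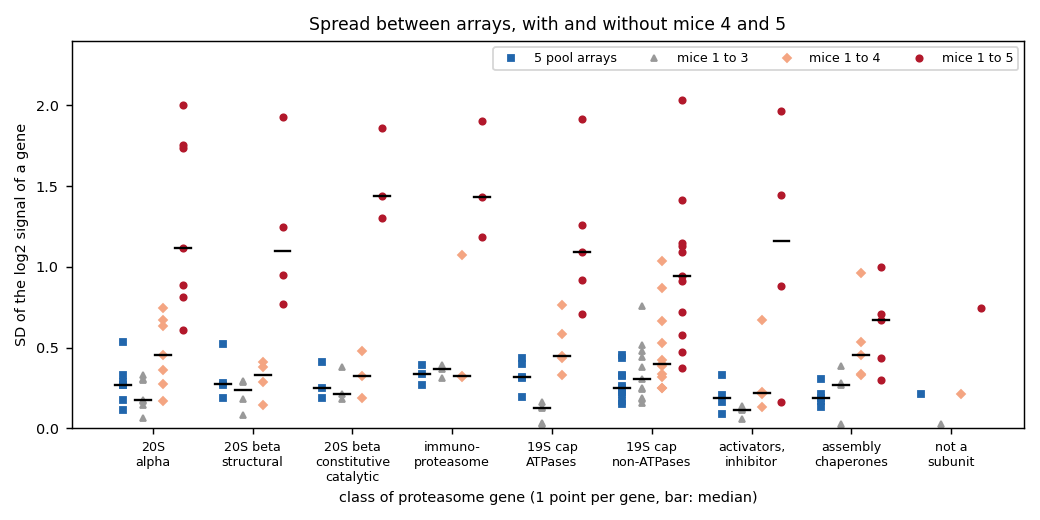
SD of the log2 signal per gene (vertical axis) by class of proteasome gene, over the 5 pool arrays, mice 1 to 3, mice 1 to 4 and all 5 mice, with 1 point per gene and a bar at the class median. In each class the median over all 5 mice lies above the medians of the other 3 sets of arrays, and the highest point for mice 1 to 3 is Psmd14 at 0.76.

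The 14 tested genes of the 20S core averaged −2.47 in mouse 5 relative to the pool, and the 16 of the 19S cap −1.92. The core mean in mice 1 to 4 was 0.24, 0.14, 0.24 and −0.26, and the value in mouse 4 became −0.00 after quantile normalization. All 7 tested genes of the alpha ring were more variable between mice, against 66.8% of all genes. Mouse 5 was the lowest mouse for 7 of 7, against 46.1%. Psma6, an alpha ring subunit, read 8.82, 8.93, 9.16, 8.78 and 4.45 in mice 1 to 5 and 9.06, 8.41, 9.10, 8.68 and 8.44 on pool 1 to pool 5. Mouse 5 was low, and the other 4 mice overlapped the pool. Psma7 read 8.67, 8.79, 9.01, 7.59 and 4.84 in the mice, against 8.65, 8.81, 8.84, 8.73 and 8.39 in the pool, so that mouse 4 was low as well. The log2 variance ratio was 5.16 for Psma6 and 5.19 for Psma7 (limma adjusted p = 0.000108 and 0.000107), and without mouse 5 these became −2.03 and 2.18 (adjusted p = 0.937 and 0.0916).

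Psma2 and Psma5 showed another pattern, with mice 4 and 5 low together. Psma2 read 9.81, 9.56, 9.80, 8.40 and 8.13 in the mice, against 9.94, 9.54, 9.91, 9.65 and 9.30 in the pool. Psma5 read 7.62, 7.62, 7.73, 6.17 and 5.92 in the mice, against 7.79, 7.54, 7.53, 7.66 and 7.57 in the pool. Both mice lay below every pool array for both genes, and mice 1 to 3 did not. After quantile normalization the mouse 5 value relative to mice 1 to 4 went from −1.26 to 0.17 for Psma2 and from −1.37 to −0.67 for Psma5, so the direction of mouse 5 for Psma2 depends on the scaling. Psma5 was 1 of the 7 genes called without mouse 5 (log2 variance ratio 3.13, limma adjusted p = 0.0194, SD 0.74 in mice 1 to 4), and in mice 1 to 3 its SD was 0.07 against 0.11 in the pool. Psma2 did not pass without mouse 5 (adjusted p = 0.107).

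Of the 4 structural beta subunits, which build the ring without cutting, 3 were more variable between mice, near the 66.8% of all genes. Psmb4 read 9.33, 9.10, 9.46, 9.31 and 5.00 in the mice, against 9.37, 9.03, 9.41, 9.28 and 8.73 in the pool, and mouse 5 alone was outside the pool's range on the low side. Psmb1 read 8.14, 8.12, 7.62, 7.37 and 5.12 in the mice, against 8.27, 7.69, 7.75, 7.65 and 7.64 in the pool. The log2 variance ratios were 5.13 and 4.21 (limma adjusted p = 0.000109 and 0.000461), and both lost the call without mouse 5, where they were −2.34 and 0.69. Psmb3 was the exception among the core genes: it read 10.16, 10.06, 10.61, 9.60 and 11.63 in the mice, against 9.97, 10.64, 10.16, 10.25 and 9.22 in the pool, with mouse 5 the highest array, and did not pass (adjusted p = 0.0676). A second probe set of Psmb3 read 7.41, 7.27, 6.26, 6.28 and 4.35 in the mice, so the direction of mouse 5 for Psmb3 depends on the probe set.

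The promoters of a constitutive and an interferon-inducible cutting subunit are shown because both were low in mouse 5. Each stretch holds the 250 bases before the RefSeq gene start (GRCm38.p6), written 5′ to 3′ on the gene's strand. Psmb5 lies at chr14:54617996-54618245 on the minus strand, and its capitals mark a match to TGACNNNGC, the core of the antioxidant response element, 47 bases before the start. Psmb8 lies at chr17:34197945-34198194 on the plus strand, and its capitals mark a match to TTCNNNGAA, the gamma-activated site, 97 bases before the start.
Psmb5: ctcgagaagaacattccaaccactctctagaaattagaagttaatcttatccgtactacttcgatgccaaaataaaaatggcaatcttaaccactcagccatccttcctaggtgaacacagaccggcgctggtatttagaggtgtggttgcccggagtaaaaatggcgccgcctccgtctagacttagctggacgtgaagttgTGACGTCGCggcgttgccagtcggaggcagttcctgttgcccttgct
Psmb8: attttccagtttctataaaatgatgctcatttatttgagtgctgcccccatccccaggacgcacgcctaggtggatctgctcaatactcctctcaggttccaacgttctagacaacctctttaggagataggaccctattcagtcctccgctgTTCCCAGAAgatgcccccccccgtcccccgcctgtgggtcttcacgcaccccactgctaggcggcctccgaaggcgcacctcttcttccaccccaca
Promoter entries were found for 39 of the 47 genes, with 43 entries in all, and motifs were searched on both strands. TGACNNNGC stood in 4 of 43 (9.30%; Psmb5, Psmb6, Psmd9 and Psmd12) against 12.4% of all 32851 promoters, and TTCNNNGAA in 3 (6.98%; Psmb8, Psmd2 and Psmg1) against 8.30%. The interferon-stimulated response element stood in 5 (11.6%; Psmb3, Psmd4, Psmd9, Psme1 and Psmg4) against 3.44%, and CCAAT in 15 (34.9%) against 37.4%. A match describes these letters alone, and the interferon motif can overlap TTCNNNGAA.

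The 3 constitutive cutting subunits were all more variable between mice, against 66.8% of all genes. Mouse 5 was the lowest mouse for each, against 46.1%. Psmb5, the chymotrypsin-like subunit, read 8.76, 8.53, 8.34, 8.71 and 5.39 in the mice, against 8.75, 8.46, 8.89, 8.72 and 8.46 in the pool. Psmb6, the caspase-like subunit, read 8.21, 7.92, 8.27, 7.22 and 5.14 in the mice, against 8.00, 8.02, 8.18, 8.02 and 7.52 in the pool. Psmb7, the trypsin-like subunit, read 7.73, 7.76, 7.08, 7.68 and 3.45 in the mice, against 7.71, 7.23, 8.21, 7.27 and 7.36 in the pool. Mouse 5 lay below every pool array for each of the 3 genes, mouse 4 did so for Psmb6, and mouse 3 for Psmb5 and Psmb7. The log2 variance ratios were 4.61, 4.34 and 4.95 (limma adjusted p = 0.000224, 0.000361 and 0.000137). Without mouse 5 none of the 3 passed (−1.33, 1.36 and −0.18), against 20.3% of all genes.

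The 3 immunoproteasome subunits were also all more variable between mice, against 66.8% of all genes. Psmb8, which takes the place of Psmb5, read 9.22, 9.14, 8.64, 8.61 and 5.75 in the mice, against 8.87, 8.72, 9.34, 8.87 and 8.41 in the pool. Psmb9, which takes the place of Psmb6, read 9.50, 9.58, 8.86, 9.20 and 5.07 in the mice, against 9.42, 9.23, 9.80, 9.22 and 8.71 in the pool. For both genes mouse 5 alone lay outside the pool's range on the low side. Psmb10, which takes the place of Psmb7, read 7.97, 8.01, 7.36, 5.72 and 5.62 in the mice, against 7.55, 7.61, 7.30, 7.36 and 6.93 in the pool, and here mice 4 and 5 were both low and mice 1 and 2 above the pool. The log2 variance ratios were 4.16, 4.77 and 4.20 (limma adjusted p = 0.000503, 0.000175 and 0.000468). Without mouse 5 Psmb10 still passed (3.85, adjusted p = 0.00473) and Psmb8 and Psmb9 did not (−0.22 and −0.35). In mice 1 to 3 the SD of Psmb10 was 0.37, against 0.27 in the pool. A second probe set of Psmb9 read 8.93, 9.06, 8.23, 7.07 and 5.64 in the mice, so the reading of mouse 4 for Psmb9 differs between its probe sets.

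**Figure D3:**
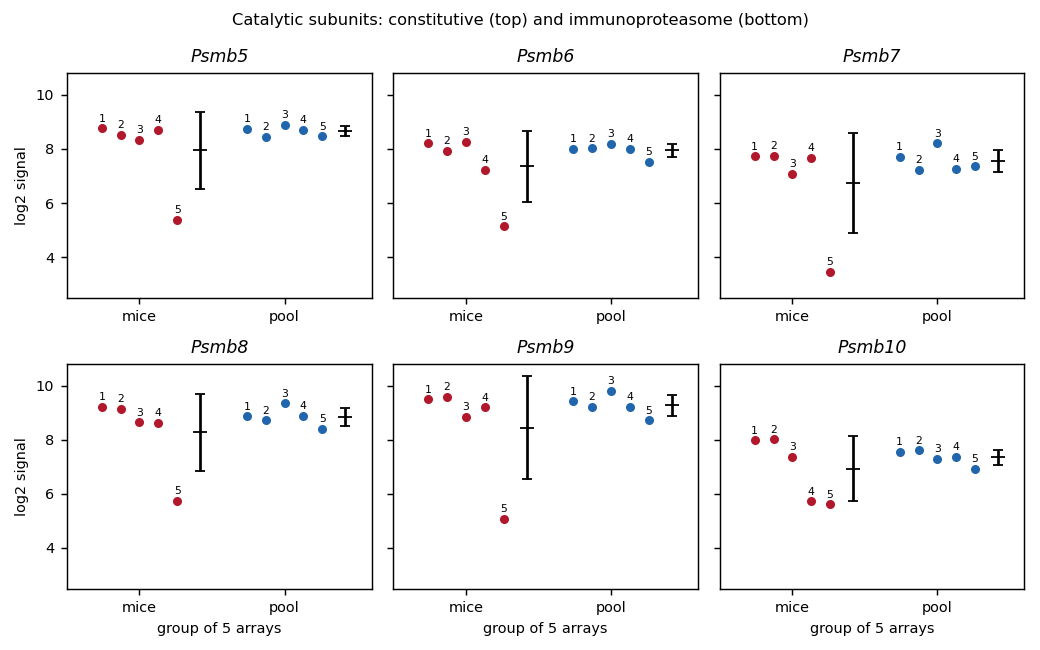
Log2 signal (vertical axis) of the 3 constitutive cutting subunits (top row) and their immunoproteasome counterparts (bottom row) in the 5 mice (red) and the 5 pool arrays (blue), numbered, with the mean and SD of each group at its right. Mouse 5 is the lowest point in each panel, and in the Psmb10 panel mouse 4 lies beside it at 5.72.

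As the difference between an immunoproteasome gene and its constitutive counterpart, relative to the mean of the same difference on the pool arrays, the 3 pairs did not follow 1 pattern over the mice. For Psmb8 minus Psmb5 it was 0.27, 0.42, 0.11, −0.28 and 0.18 in mice 1 to 5, with the pool between −0.24 and 0.27. For Psmb9 minus Psmb6 it was −0.04, 0.32, −0.74, 0.64 and −1.40, with the pool between −0.13 and 0.29. For Psmb10 minus Psmb7 it was 0.46, 0.46, 0.49, −1.75 and 2.37, with the pool between −0.70 and 0.59. Psmb7 in mouse 5 read 3.45, below the filter level of 4.58, so the size of the 2.37 is uncertain. In mouse 5 the first pair stayed inside the range of the pool while the other two went in opposite directions, and in mouse 4 the sign also differed between pairs. The mean of the 3 pairs was 0.23, 0.40, −0.05, −0.46 and 0.38, with the pool between −0.20 and 0.18. With the second probe set of Psmb9 its pair read −0.14 in place of −1.40 in mouse 5 and −0.80 in place of 0.64 in mouse 4. These differences were not tested.

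All 5 tested ATPases of the 19S cap, the motor that unfolds proteins, were more variable between mice, against 66.8% of all genes. Psmc2 read 9.06, 9.09, 9.04, 7.90 and 4.64 in the mice, against 8.80, 8.27, 9.04, 8.48 and 8.42 in the pool. Psmc1 read 6.90, 6.86, 7.10, 6.08 and 4.06 in the mice, against 6.73, 6.18, 6.78, 6.00 and 5.96 in the pool. Psmc4 read 9.36, 9.04, 9.21, 7.70 and 7.40 in the mice, against 9.53, 9.38, 9.36, 9.07 and 8.43 in the pool. Mouse 5 was the lowest of the 10 arrays for each of the 3, and mouse 4 was low for Psmc2 and Psmc4 and within the pool for Psmc1. Relative to mice 1 to 4, Psmc4 in mouse 5 read −1.43 as deposited and 0.063 after quantile normalization. The log2 variance ratios were 5.12, 4.15 and 2.53 (limma adjusted p = 0.00011, 0.000506 and 0.0163). None of the 5 ATPases passed without mouse 5, against 20.3% of all genes. In mice 1 to 3 the SD of Psmc2 was 0.02, against 0.31 between pool arrays. The ATPases averaged −0.73 in mouse 4, and −0.46 after quantile normalization.

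Of the 11 tested non-ATPases of the cap, 9 were more variable between mice, against 66.8% of all genes. Psmd8, a lid subunit, read 8.30, 8.41, 8.10, 7.69 and 3.63 in the mice, against 8.56, 8.28, 8.49, 8.19 and 8.19 in the pool, a 27.6-fold span between mice (log2 variance ratio 5.79, limma adjusted p = 7.68e-05). Its mouse 5 reading lay below the filter level of 4.58 and below the median of 4.74 on that array, so the size of the span is uncertain. Psmd2, a base subunit, read 8.29, 8.39, 8.87, 7.59 and 5.30 in the mice, against 8.23, 7.91, 7.99, 7.72 and 7.65 in the pool (4.59, adjusted p = 0.000231). Both were lowest in mouse 5 and next lowest in mouse 4, and neither passed without mouse 5 (adjusted p = 0.545 and 0.179). Psmd12, the non-ATPase with the lowest ratio, read 6.95, 6.59, 6.48, 6.37 and 5.66 in the mice, against 6.57, 5.85, 6.46, 5.99 and 5.93 in the pool, where mice and pool overlapped, and did not pass (adjusted p = 0.0851).

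Without mouse 5, 3 of the 11 non-ATPases still passed, against 20.3% of all genes. Psmd1, the large scaffold of the base, read 6.78, 6.65, 7.02, 5.52 and 4.43 in the mice, against 6.49, 5.81, 6.30, 5.80 and 5.85 in the pool. Psmd14, the deubiquitinase that removes ubiquitin chains from the substrate, read 8.13, 8.14, 9.45, 7.36 and 7.00 in the mice, against 8.48, 7.83, 8.13, 8.04 and 7.86 in the pool. Psmd11, a lid subunit, read 7.28, 7.33, 7.96, 5.54 and 7.36 in the mice, against 8.32, 8.34, 7.32, 7.72 and 7.78 in the pool. Psmd1 was low in mice 4 and 5, Psmd14 was high in mouse 3 and low in mice 4 and 5, and Psmd11 was far lower in mouse 4 than in the other mice. For Psmd14 the mouse 5 value relative to mice 1 to 4 was −1.27 as deposited and 0.17 after quantile normalization. Their log2 variance ratios without mouse 5 were 2.69, 2.99 and 3.12 (limma adjusted p = 0.0419, 0.0249 and 0.0196). Without mouse 4 in place of mouse 5, Psmd11 had a ratio of −0.34 (adjusted p = 0.588), and without mouse 3 the adjusted p of Psmd14 was 0.0707. Psmd11 has further probe sets that read 6.45, 6.94, 5.90, 5.59 and 3.19, and 4.96, 4.93, 4.72, 5.96 and 6.17, in the mice, so its order of the mice differs between probe sets.

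Among the 4 activator and inhibitor genes 3 were more variable between mice, near the 66.8% of all genes. Psme1 and Psme2, which encode the PA28 alpha and beta chains of the interferon-inducible activator, were close in mice 1 to 4 and low in mouse 5. Psme1 read 8.95, 8.85, 8.94, 8.50 and 4.44 in the mice, against 8.91, 8.75, 8.95, 8.84 and 8.43 in the pool. Psme2 read 9.00, 9.11, 9.23, 9.52 and 6.01 in the mice, against 8.87, 8.95, 9.24, 8.99 and 8.34 in the pool. Mouse 4 was the highest array for Psme2 and within the pool for Psme1, which has the second highest log2 variance ratio of the 43 genes. The ratios were 5.45 and 4.17 (limma adjusted p = 8.71e-05 and 0.000492), and −1.08 and −1.24 without mouse 5.

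Psme3, the nuclear PA28 gamma chain, read 6.68, 6.89, 6.94, 5.52 and 5.02 in the mice, against 6.64, 6.51, 6.46, 6.35 and 6.21 in the pool. It was low in mice 4 and 5, and passed with all mice (4.14, limma adjusted p = 0.000516) and without mouse 5 (3.26, adjusted p = 0.0155). Psmf1, the inhibitor PI31, read 6.59, 6.44, 6.36, 6.28 and 6.15 in the mice, against 6.38, 6.48, 6.24, 6.37 and 6.42 in the pool. It had the smallest SD between mice of the 43 genes, with an SD of 0.17 between mice and 0.09 in the pool (log2 variance ratio −0.47, adjusted p = 0.626). The ratio is negative although the SD was larger between mice, since it uses the moderated pool variance. Relative to the mean of mice 1 to 4, Psmf1 read −0.27 in mouse 5 as deposited and 0.55 after quantile normalization, so its direction depends on the scaling. Another probe set of Psmf1 had an SD of 0.42 between mice and 0.16 in the pool. It read 4.16 in mouse 4, against 5.01 to 5.41 in the pool, so the small spread holds for the probe set used.

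Of the 5 tested assembly chaperones, which hold the partly built rings and caps together, 4 were more variable between mice, within 1 gene of the 66.8% of all genes. Psmg2 read 5.83, 5.52, 6.29, 4.07 and 4.19 in the mice, against 5.79, 5.42, 5.42, 5.51 and 5.22 in the pool. Its partner Psmg1 read 5.84, 5.87, 5.89, 4.96 and 4.43 in the mice, against 5.56, 5.13, 5.61, 5.41 and 5.47 in the pool. Mice 4 and 5 lay below every pool array for both genes. Psmg2 had a log2 variance ratio of 4.79 with all mice and 4.64 without mouse 5 (limma adjusted p = 0.000168 and 0.000979), the smallest adjusted p of the 7 genes called without mouse 5. Its readings of 4.07 in mouse 4 and 4.19 in mouse 5 lay below the filter level and below the medians of those arrays. The size of both ratios of Psmg2 is therefore uncertain. Psmg1 had a ratio of 3.73 (adjusted p = 0.00121) and did not pass without mouse 5. Psmg3 read 7.26, 7.00, 6.70, 6.48 and 6.98 in the mice, against 6.82, 6.95, 6.87, 6.95 and 6.54 in the pool, where the groups overlapped, and did not pass (adjusted p = 0.283). As a class the chaperones averaged −0.74 in mouse 4 and −0.87 in mouse 5, the 2 lowest values of the 10 arrays.

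Mouse 4 was the other array on which many proteasome genes were low. It lay below all of mice 1 to 3 for 32 of 43 genes, against 52.0% of all genes, and above them for 3 (Psma1, Psme2 and Psme3ip1), against 27.6%. After quantile normalization these counts were 24 and 8, against 40.4% and 39.2%. It lay more than 2-fold below the lowest of mice 1 to 3 for 11 genes, against 11.7%, among them Psma2, Psma5, Psma7, Psmb10, Psmc2 and Psmg2. The 7 genes called without mouse 5 (Psma5, Psmb10, Psmd1, Psmd11, Psmd14, Psme3 and Psmg2) were each lower in mouse 4 than the mean of mice 1 to 3. The differences ran from −2.06 (Psmb10) to −1.22 (Psmd14) as deposited and from −1.74 (Psmg2) to −0.84 (Psmd14) after quantile normalization. The deposited reading of Psmg2 in mouse 4 lay below the filter level, so the size of its difference is uncertain. These genes were picked for a large variance over mice 1 to 4, of which mouse 4 stood apart, so large differences there were partly built in. The share lower in mouse 4 among the 2176 genes called without mouse 5 was not computed, so this is no result about proteasome genes. For the constitutive cutting subunits mouse 4 averaged −0.18 against the pool as deposited and 0.06 after quantile normalization, and for the activators and inhibitor −0.16 and 0.08, so that no direction held there under both scalings. The B cell markers were low in mouse 4 by the value given above, with 9 of 9 below mice 1 to 3, and the part of this in the proteasome values was not tested.

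**Figure D4:**
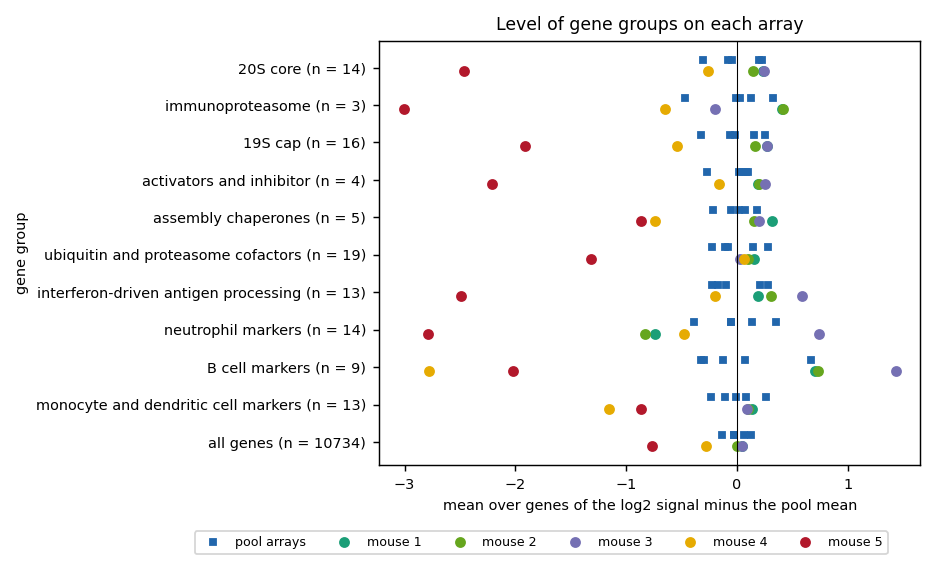
Mean over the genes of a group of the log2 signal minus the pool mean (horizontal axis), on each mouse (circles) and each pool array (squares), for proteasome groups, related gene lists and blood cell markers. Mouse 5 is far left for the 20S core at −2.47 and for the immunoproteasome at −3.01, and mouse 4 lies farthest left for the B cell markers at −2.78.

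Genes that work with the proteasome were taken from 2 lists. Of 19 tested ubiquitin and proteasome cofactors 13 were more variable between mice, a share near the 66.8% of all genes, and 0 without mouse 5, against 20.3% of all genes. The 3 with the highest ratio were Nsfl1c, a cofactor of the p97 unfolding ATPase, Nfe2l2, a transcription factor of the oxidative stress response, and Ubqln1, a shuttle that brings ubiquitin-tagged proteins to the proteasome. Nsfl1c read 6.34, 6.50, 6.44, 5.98 and 4.12 in mice 1 to 5, and Ubqln1 read 8.45, 8.27, 8.88, 8.43 and 4.13. Nfe2l2 read 9.89, 9.71, 9.92, 10.76 and 5.60. All 3 were lowest in mouse 5, and Nfe2l2 was highest in mouse 4. They were picked for ratios that mouse 5 raises. Of the 19 cofactors, mouse 5 was the lowest mouse for 15, against 46.1% of all genes. The cofactors averaged 0.06 in mouse 4 and −1.32 in mouse 5 against the pool.

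Of 13 tested genes of interferon-driven antigen processing 12 were more variable between mice, against 66.8% of all genes, and 3 without mouse 5 (Irf8, Erap1 and Ifngr2), a share near the 20.3% of all genes. The highest ratios were those of Calr and Tapbp, chaperones of MHC class I loading, and of Ifngr2, a chain of the interferon gamma receptor. Calr read 9.09, 8.89, 9.98, 8.61 and 4.42 in mice 1 to 5, and Tapbp read 11.11, 11.10, 11.89, 10.94 and 6.73. Ifngr2 read 6.36, 7.34, 6.16, 8.26 and 4.26. Each was lowest in mouse 5, while mouse 3 was highest for Calr and Tapbp and mouse 4 for Ifngr2. These 3 were also picked for ratios that mouse 5 raises. Of the 13 genes, mouse 5 was the lowest mouse for 11, against 46.1% of all genes. The list averaged −0.20 in mouse 4 and −2.49 in mouse 5. In the gene order of the reference, Psmb8 and Psmb9 stand among the peptide transporter genes, with Tap1 between them.

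The mean level of the proteasome genes was not shown to differ between the individual mice and the pool. With the error taken from the spread between mice, 0 of 43 genes had a higher and 0 a lower mean (limma, smallest adjusted p = 0.999; at an unadjusted p under 0.05 also 0 and 0, against 0.354% and 4.86% of all genes), as for all genes, of which 0% passed in either direction. An ordinary fit of the 2 groups also called 0, against 0.0279% of all genes higher and 2.66% lower, with 2 lower at an unadjusted p under 0.05 (Psmd4 and Psmd9), against 8.86% of all genes. The mean difference ranged from −1.11 to 0.42, with a median of −0.41 against −0.10 for all genes. The lowest was that of Psmd8 (−1.11, SE 1.02), and the highest that of Psmd6, a lid subunit (0.42, SE 0.50). Without mouse 5 the median was 0.05 and 0 genes passed, against 0.0186% of all genes higher and 1.43% lower, with 2 higher and 1 lower at an unadjusted p under 0.05, against 4.30% and 8.11% of all genes. The smallest adjusted p was then 0.321, for Psmd4, a ubiquitin receptor of the cap, with a difference of −0.60 (SE 0.21). Without mice 4 and 5 also 0 genes passed, against 1.08% of all genes higher and 3.28% lower, and at an unadjusted p under 0.05 there were 11 higher and 1 lower, against 15.5% and 11.1%.

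Psmd4 read 9.70, 9.60, 9.22, 9.22 and 6.96 in the mice, against 10.03, 10.14, 10.14, 10.25 and 9.63 in the pool. On this probe set mice 2 to 5 lay below every pool array, and mouse 1 lay above pool 5 alone. Another probe set of Psmd4 read 7.24, 7.13, 7.15, 6.53 and 6.27 in the mice, against 7.02 to 7.37 in the pool. There mice 1 to 3 lay within the pool's range. A further probe set read 7.40, 7.36, 6.70, 6.75 and 5.11, against 7.30 to 7.57, with mice 1 and 2 within the range. The position of mice 1 to 3 for Psmd4 thus depends on the probe set. No gene of the 43 had mice and pool arrays without overlap, against 5.97% of all genes, and without mouse 5 there were 2 (Psmd6 and Psme3ip1), against 10.1%.

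The genes known from other tissues had a mean signal under the filter. Psma8, an alpha subunit of the testis, read between 3.46 and 4.24 in the mice and between 3.65 and 3.93 in the pool. Psmb11, the cutting subunit of the thymus, read 3.73, 3.71, 3.75, 4.79 and 3.90 in the mice, against 3.55 to 3.99 in the pool, with mouse 4 highest. Psmc3ip read 3.58 to 4.24 in the mice, against 4.05 to 4.30 in the pool. Neither a spread nor a mean was tested for them. Psme3ip1, the interacting protein, read 7.50, 7.44, 7.47, 7.90 and 5.96 in the mice, with mouse 5 again the lowest.

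Of the 43 tested genes, 10 had more than 1 probe set above the filter. For 4 of them (Psmb3, Psmd7, Psmd11 and Psmf1) the sign of mouse 5 minus the mean of mice 1 to 4 differed between probe sets, and for Psmd11 so did the sign of mouse 4 minus mice 1 to 3. For the other 6 the probe sets placed mouse 5 on the same side. Psmd6 read 8.24, 8.07, 8.91, 8.15 and 6.91 in the mice on the probe set used and 8.05, 7.90, 8.01, 6.93 and 4.15 on the other.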

How the data were processed

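Messenger RNA of 10 blood neutrophil samples was measured on Affymetrix arrays. The authors deposited log2 signals of each probe set, computed by RMA per the submitters' processing notes; its version and background step are not given in the sources used here. Of 45141 probe sets, 104 were controls, 551 named several genes and 15588 named none, and these were not used. For each of 17097 genes the probe set with the highest mean was taken, and 10734 genes passed the filter on low signal, a mean over 4.58. Unmapped columns numbered 0. Arrays give no counts, so their number, 5 per group, limits the precision.

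The variance between mice was divided by that between pool arrays, moderated by signal level with R 4.3.3 and limma 3.58.1, and tested one-sided in each direction. Means were compared in limma with the error from the individual mice alone, two-sided. Benjamini-Hochberg adjustment ran over all genes tested, with a threshold of 0.05. Tables and plots were made with Python 3.11.15, numpy 2.4.6, pandas 2.3.3 and matplotlib 3.10.9. The tests were checked on simulated data with independent normal values, in which no array stood apart. That check does not cover data with an array such as mouse 5.

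The genes, classes and lists were chosen with earlier results of these data known. Named genes were the catalytic, immunoproteasome, activator and inhibitor genes; the 2 highest and the 1 lowest log2 variance ratio of the other classes; those past the threshold without mice 4 and 5, without mouse 5 or in the mean comparison, up to 8 each; Psma8, Psmb11 and Psmc3ip; and 3 genes of each list. Psmd4, Psmd6, Psme3ip1, S100a8 and S100a9, the single monocyte and dendritic cell markers, and the genes named beside counts of 11 or fewer, were named after their values were seen. Promoters came from RefSeq (GRCm38.p6), and 47 of 47 genes matched its gene table by ID. Alternatives were other filters, scalings, probe set choices and tests, and arrays left out.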

Additional observations from a re-analysis of the deposited data

Results flagged for a closer look

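Within each group of 5 arrays, 76 sets of values, those of named genes and of class means, were examined for an array whose gap to its nearest neighbour took up an unusually large share of the group's range, and 19 stood out. Chance alone marks about 5% of independent sets, but these genes share their arrays and many were named for ratios that mouse 5 raises, so the 19 cannot be read against that share. Of the 19, 16 were in the mice, and 15 of these were mouse 5.

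Mouse 5 was lowest, with a gap of 0.920 of the range for Psma6, 0.920 for Psmb4, 0.900 for Psme1, 0.876 for Psmb5, 0.852 for Psme2, 0.850 for Psmd8, 0.843 for Psmb7, 0.841 for Psmb9, 0.825 for Psmb8, 0.746 for Psmb1 and 0.733 for Psmc2. The class means gave 0.898 for the constitutive catalytic subunits, 0.834 for the activators and inhibitor, 0.756 for the structural beta subunits and 0.749 for the alpha ring, again with mouse 5 lowest. For Psmd11 mouse 4 was lowest, with a gap of 0.719.

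In the pool, pool 5 was lowest for Psmb6 (0.727) and for the mean of the activators and inhibitor (0.778), and pool 1 was highest for Psmb1 (0.823).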

How the results depend on the processing

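The count of 38 more variable genes was 7 to 40 with 1 array left out, the 7 without mouse 5, and 0 without mice 4 and 5, which leaves 3 mice, or by the Levene type test, which gives no value for class medians; the cause was not tested. The other settings moved this count by less than 1.5 times. Counts of less variable genes and of higher or lower means were 0 under each alternative. Deviations of same-numbered arrays correlated at 0.501, −0.259, 0.331, −0.195 and 0.441. The best match was pool 1 for mice 1, 2 and 3, pool 3 for mouse 4 and pool 4 for mouse 5. No pairing was assumed, and this check cannot exclude shared processing of same-numbered arrays. With the replicate block 0 genes were higher and 0 lower.

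Class medians of the log2 variance ratio without mice 4 and 5 were −1.58 for the alpha ring, −1.41 for the structural and −1.03 for the constitutive catalytic beta subunits, −2.54 for the ATPases, 0.11 for the non-ATPases, −2.33 for the activators and inhibitor and 0.48 for the chaperones, whose median was 1.65 above the 75th percentile of signal. With 1 array left out they ran from 0.41 to 4.10 for the alpha ring, 0.19 to 4.51 for the structural and −0.18 to 5.19 for the catalytic subunits, −0.22 to 4.90 for the immunoproteasome, 1.22 to 4.35 for the ATPases and −1.13 to 4.92 for the activators.

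The single-gene ratio turned negative without mice 4 and 5 for Psmb5 (−1.03), Psmb6 (−1.41), Psmb8 (−0.29), Psme1 (−4.82), Psme2 (−3.21), Psme3 (−1.38), Psma7 (−1.58), Psma6 (−1.98), Psma2 (−2.37), Psma5 (−3.95), Psmb4 (−1.76), Psmb1 (−0.042), Psmc2 (−7.50), Psmc1 (−2.54), Psmc4 (−2.48), Psmd8 (−1.78), Psmd1 (−1.01) and Psmg1 (−5.69), and for Psmb3 (−1.06) and Psmd12 (−0.26), which had not passed with all mice. With 1 array left out it ran from −1.33 to 5.19 for Psmb5, −0.18 to 5.54 for Psmb7, −0.22 to 4.83 for Psmb8, −0.35 to 5.68 for Psmb9, −1.08 to 6.35 for Psme1, −1.24 to 5.32 for Psme2, −2.03 to 5.53 for Psma6 and −2.34 to 6.11 for Psmb4, lowest without mouse 5, and from −0.34 to 3.12 for Psmd11, lowest without mouse 4.

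Psmb3 passed after quantile normalization (log2 variance ratio 2.71), above the 75th percentile of signal (1.87) and without probe sets that match several transcripts (4.21), and Psmg3 passed after quantile normalization (3.61).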
